A study of Mus musculus with 18 samples.

Results

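Genes of vesicle transport between the endoplasmic reticulum (ER) and the Golgi were followed in skeletal muscle of mice labelled as lacking Site-1 Protease. The 34 genes were taken from a list of symbols, each matched to 1 Ensembl identifier among the 41388 genes of the count tables. They comprise 12 genes of the COPII route out of the ER, 8 subunits of the COPI coat, 8 Golgi tethers and SNARE proteins, and 6 cargo receptors. Knockout mice had floxed alleles of Mbtps1, the gene of this protease, together with the HSACre transgene, in which the promoter of human skeletal actin drives Cre recombinase in muscle fibres. Control mice had the floxed alleles without Cre, so no group had Cre alone. All mice were 12 weeks old, ate standard chow and were fasted for 4 h before the muscles were taken. Total RNA depleted of ribosomal RNA was sequenced from the soleus, which is rich in slow fibres (4 knockout and 5 control libraries), and from the gastrocnemius, a mostly fast muscle (4 knockout and 5 control libraries). The series text gives 4 per group, and the group sizes used here follow the sample titles. The labels state neither that the libraries came from separate mice nor that the muscles came from the same mice, so the p-values measure the spread between these libraries, which may be partly technical.

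COPII is the coat that forms vesicles at ER exit sites. The GTPases Sar1a and Sar1b start it, Sec23a or Sec23b and 1 of 4 Sec24 proteins form its inner layer and select cargo, Sec13 and Sec31a form the outer cage, and Sec16a organises the exit site. COPI, or coatomer, carries proteins back from the Golgi to the ER and between Golgi cisternae; its subunits are Copa, Copb1, Copb2, Copg1 or Copg2, Arcn1, Copz1 and Cope. Golgins (Golga1, Golga2, Golga3, Golga4 and Golgb1) tether arriving vesicles, and the SNARE proteins Sec22b, Gosr1, Gosr2 and Stx5a fuse them with the Golgi. Tmed2 and Tmed10 are p24 cargo receptors, Lman1 and Surf4 load secreted proteins into COPII vesicles, and Kdelr1 and Kdelr2 return escaped ER proteins in COPI vesicles. The pathway bears on Site-1 Protease because the enzyme sits in the Golgi, where it cuts membrane-bound transcription factors such as SREBP and ATF6 after COPII vesicles have brought them from the ER.

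Library totals ran from 39.0 to 78.2 M counts, and all 34 genes were counted in all 18 libraries, the lowest count of any being 257. Muscle labels matched the defining markers, as all 5 slow-fibre genes were higher in control soleus than in control gastrocnemius and 4 of 5 fast-fibre genes were lower. The genotype labels could not be checked from the targeted gene. Mbtps1 averaged 37.6 ± 3.58 CPM (counts scaled to library size) in knockout gastrocnemius and 31.5 ± 2.40 CPM in control gastrocnemius (SD, n = 4 and 5), and 34.5 ± 2.51 CPM in knockout soleus and 32.3 ± 1.497 CPM in control soleus. Its count covers the whole gene, and the sources used here do not name the floxed exon, so every knockout direction below rests on the labels. In the gastrocnemius, Ttn took 6.76 to 12.56% of counts in knockout libraries and 7.25 to 12.08% in control libraries, and libraries 2, 3 and 6 were the highest.

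Per kilobase of exon, the genes covered a range of about 2 orders of magnitude, and Sar1b and Golga4 stood above all others in every group. In gastrocnemius controls Sar1b averaged 180 ± 15.5 CPM per kb and Golga4 averaged 109 ± 7.01 CPM per kb (SD, n = 5). Kdelr1 followed at 32.7 CPM per kb, then Sar1a at 31.0 and Surf4 at 26.0 CPM per kb; Kdelr1 and Sar1a differed by less than their spread. At the low end, Stx5a (2.48 ± 0.179), Copg2 (2.23 ± 0.209) and Sec23b (1.31 ± 0.159 CPM per kb) closed the order, with Sec23b last in all 4 groups. In soleus controls the order of the first pair was the other way round, with Golga4 at 109 ± 8.71 and Sar1b at 45.7 ± 4.97 CPM per kb. The plot of length-scaled levels by group shows that most genes kept their place, and that Sar1b was the gene whose level differed most between the muscles.

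**Figure D1:**
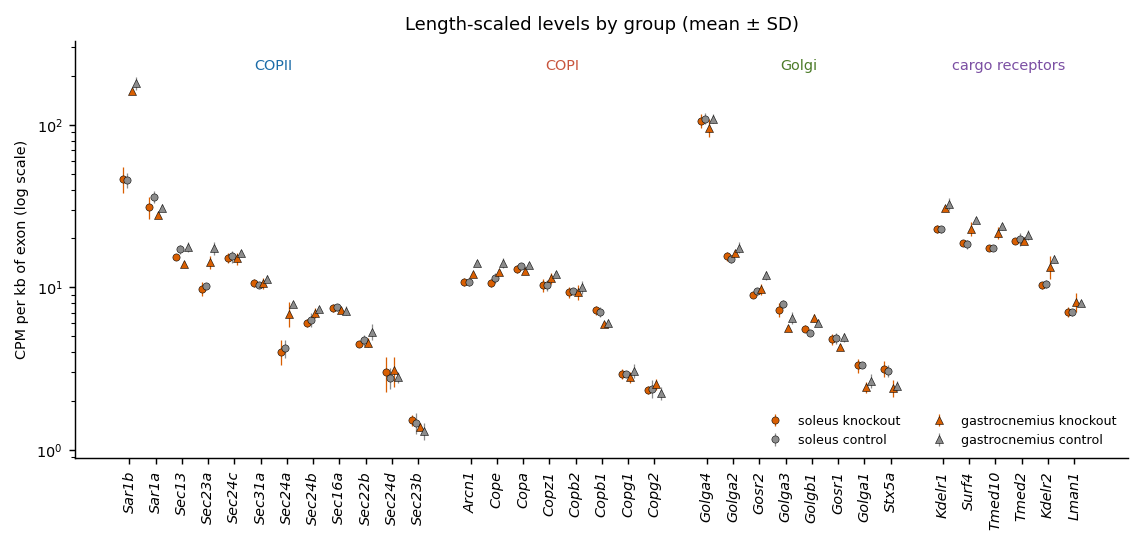
Mean level in CPM per kilobase of exon (log axis, bars are SD) of the 34 genes in knockout and control soleus (circles, n = 4 and 5) and knockout and control gastrocnemius (triangles, n = 4 and 5), ordered within each class by the gastrocnemius control mean. Golga4 lies near 109 CPM per kb in both control groups, whereas Sar1b lies at 45.7 in soleus controls and at 180 in gastrocnemius controls.

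In the gastrocnemius, Sec13 and Gosr2 were lower in knockout than in control libraries, and no gene of the 34 was higher (adjusted p under 0.05 in edgeR's quasi-likelihood test, adjusted over all 16393 genes tested). Over all genes 2.01% were called lower and 1.77% higher in this comparison, against 2 and 0 of the 34. The differences were small: 28 of the 34 log2 fold changes were negative, their median was -0.13, and Sec13 had the largest at -0.34. Over all genes the median was 0.02 and 53.5% were positive. The genes together took 0.227 to 0.239% of counts in knockout libraries and 0.244 to 0.250% in control libraries, ranges that did not overlap. This share leans on abundant genes, as Golga4 alone averaged 821 CPM of a summed 2749 CPM in controls. With every gene weighted alike, the libraries did overlap. The mean log2 CPM of the 34, centred on each gene's gastrocnemius mean, was -0.094 to -0.0065 in knockout and -0.0115 to 0.076 in control libraries. These are whole-muscle values, in which fewer cells of a type and less RNA per cell cannot be told apart.

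Sec13, a COPII cage protein that is also part of the nuclear pore, measured 23.98, 22.8, 22.5 and 23.9 CPM in knockout gastrocnemius libraries 2, 6, 7 and 9. In control libraries 1, 3, 4, 5 and 8 it measured 27.8, 26.7, 31.3, 29.8 and 31.6 CPM. All 4 knockout libraries lay below all 5 controls, and the log2 fold change was -0.34 ± 0.07 (SE, edgeR adjusted p = 0.0219). Gosr2, a Golgi SNARE also called membrin, measured 29.5, 30.4, 32.6 and 34.7 CPM in the knockout libraries. In the controls it measured 38.8, 34.8, 39.8, 39.6 and 41.5 CPM, so the groups did not overlap, although knockout library 9 and control library 3 were nearly equal. Its log2 fold change was -0.29 ± 0.07 (edgeR adjusted p = 0.0409).

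Both calls depended on single libraries. The count of called genes was 0 when control library 4, 5 or 8 or knockout library 6 or 7 was left out, 1 (Sec13) without control library 1 and 4 without control library 3. Without libraries 2, 3 and 6, the 3 with the highest Ttn share, 2 were called, Sec13 and Sec24a. The count was 1 (Sec13) with upper-quartile scaling, and it was 4 with DESeq2 and in the fit of all 18 libraries, where Arcn1 and Sec23a joined Sec13 and Gosr2. Calls over all genes moved too. They numbered 619 in the main fit, 206 to 354 in the fits where the count was 0, and 1233 with DESeq2. Over all 18 alternatives the log2 fold change stayed between -0.38 and -0.31 for Sec13 and between -0.33 and -0.25 for Gosr2.

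By class, the median log2 fold change of the COPII set was -0.13 in knockout gastrocnemius, with 1 lower, 0 higher and 9 of 12 values negative. Sec23a, an inner-coat subunit that activates the Sar1 GTPase, came next after Sec13 at -0.28 ± 0.08 and did not pass (edgeR adjusted p = 0.0589). Its paralog Sec23b was at 0.09 ± 0.11, Sec24d at 0.14 ± 0.12 and Sec16a at 0.01 ± 0.07, the 3 positive values of the class. Sar1a did not pass either (-0.16 ± 0.06, edgeR adjusted p = 0.168), though its 4 knockout libraries, at 71.6 to 73.3 CPM, lay below its 5 controls, at 77.7 to 87.8 CPM.

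No COPI subunit passed in the gastrocnemius, where 3 of 8 had an unadjusted p under 0.05, against 3057 of all 16393 genes. For COPI, 7 of 8 values were negative and the median was -0.12. Arcn1, the delta subunit, had the smallest p of the class. It measured 72.4, 72.7, 74.1 and 77.0 CPM in the knockout libraries and 89.2, 80.7, 85.2, 86.4 and 89.0 CPM in the controls. These ranges did not overlap, and the log2 fold change of -0.22 ± 0.06 missed the threshold (edgeR adjusted p = 0.0548). Cope, the epsilon subunit, was at -0.18 ± 0.07, with 41.0, 39.8, 44.0 and 42.9 CPM in the knockout libraries and 47.5, 42.4, 48.8, 50.9 and 47.5 CPM in the controls, and its groups overlapped. The exception in sign was Copg2, at 0.18 ± 0.10. Its exons share 902 bases with Mest on the other strand, whose mean count was 261 against 560 for Copg2, and the strand setting of the counting is not stated.

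Of the 8 Golgi genes 7 were negative, with a median of -0.15 and Gosr2 as the only call. Golgb1, the golgin called giantin, was the positive one at 0.09 ± 0.07. It measured 87.4, 83.3, 78.4 and 78.5 CPM in the knockout libraries and 78.5, 79.7, 78.4, 77.6 and 70.2 CPM in the controls, and the groups overlapped. Golga3 stood at -0.21 ± 0.07, Gosr1 at -0.19 ± 0.07 and Golga4 at -0.18 ± 0.09, none past the threshold. Among the cargo receptors 5 of 6 were negative with a median of -0.13, and none passed. At an unadjusted p under 0.05 there was 1 of these 6, against 3057 of all 16393 genes. Surf4 had the smallest p of these, at -0.18 ± 0.07 (edgeR adjusted p = 0.160). It measured 72.8, 68.9, 85.5 and 73.2 CPM in the knockout libraries and 86.5, 81.7, 82.5, 88.3 and 88.1 CPM in the controls, and knockout library 7 lay inside the control range.

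Marker genes of cell types were measured in the same libraries. The 6 fibroblast markers were all positive in knockout gastrocnemius, none called, and summed to 3459 to 5285 CPM in knockout libraries and 2491 to 4379 CPM in controls. The 5 slow-fibre genes were all negative, with Myl2 called, and summed to 197 to 542 CPM in knockout libraries and 531 to 849 CPM in controls. The 3 satellite-cell markers were all positive, with Pax7 called, and summed to 6.72 to 11.9 CPM in knockout libraries and 4.15 to 6.68 CPM in controls. Of the 6 macrophage markers 5 were positive, none called, with a median log2 fold change of 0.57 and sums of 89.0 to 153 CPM in knockout libraries and 72.1 to 99.9 CPM in controls. The 5 endothelial markers were all positive (237 to 284 CPM in knockout libraries and 230.3 to 252.4 CPM in controls) and the 5 fast-fibre genes all negative (95566 to 104285 CPM in knockout libraries and 99041 to 117928 CPM in controls), with none called. In knockout soleus none of these markers was called. There all 5 slow-fibre genes were negative (median log2 fold change -0.34). All 3 satellite-cell, 5 of 6 fibroblast and 5 of 6 macrophage markers were positive there, as were 2 of 5 endothelial and 2 of 5 fast-fibre genes. No gene of the fibroblast or slow-fibre lists was at 0 in any library, and the part of these lists in the transport gene values was not tested.

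In the soleus no transport gene was called in either direction, while 0.0553% of all genes were called (10 of 18087). The median log2 fold change was -0.01, and 18 of 34 values were negative. Of the 34 genes 1, Sec13, had an unadjusted p under 0.05, against 1481 of all 18087 genes. Sec13 measured 25.0, 25.9, 25.6 and 25.8 CPM in knockout soleus libraries 35, 39, 40 and 42, and 30.4, 27.7, 30.1, 28.4 and 26.0 CPM in control libraries 34, 36, 37, 38 and 41. The knockout libraries again lay below every control, here by a narrow margin, and the log2 fold change of -0.15 ± 0.07 did not pass (edgeR adjusted p = 0.589). Gosr2 measured 29.8, 29.1, 29.2 and 28.8 CPM in the knockout libraries and 30.2, 31.3, 30.3, 31.3 and 31.1 CPM in the controls, a log2 fold change of -0.07 ± 0.06. Sec13 and Gosr2 were the 2 genes of the 34 without overlap in the soleus, and the share over all genes was not counted. DESeq2, limma voom and the other alternatives run also called 0 of the 34.

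In the soleus Arcn1 was at 0.00 ± 0.06 on the log2 scale, with 65.7, 69.1, 67.3 and 60.3 CPM in knockout libraries and 67.9, 69.5, 65.3, 65.4 and 60.6 CPM in controls. Cope was at -0.10 ± 0.07, with 38.1, 36.6, 34.3 and 33.5 CPM in knockout libraries and 39.2, 36.6, 42.3, 38.7 and 34.8 CPM in controls. Golgb1 was at 0.10 ± 0.06, with 71.7, 69.1, 67.0 and 74.6 CPM in knockout libraries and 64.3, 65.3, 64.8, 67.5 and 69.1 CPM in controls. The COPII cargo receptor Surf4 was at 0.03 ± 0.06, with 59.4, 61.6, 63.3 and 60.6 CPM in knockout libraries and 63.2, 60.0, 62.6, 54.5 and 61.8 CPM in controls. In all 4 the groups overlapped. The value farthest from 0 was that of Sar1a, at -0.21 ± 0.10 (edgeR adjusted p = 0.625). The class medians were -0.04 for COPII, -0.01 for COPI, 0.00 for Golgi genes and 0.01 for cargo receptors.

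**Figure D2:**
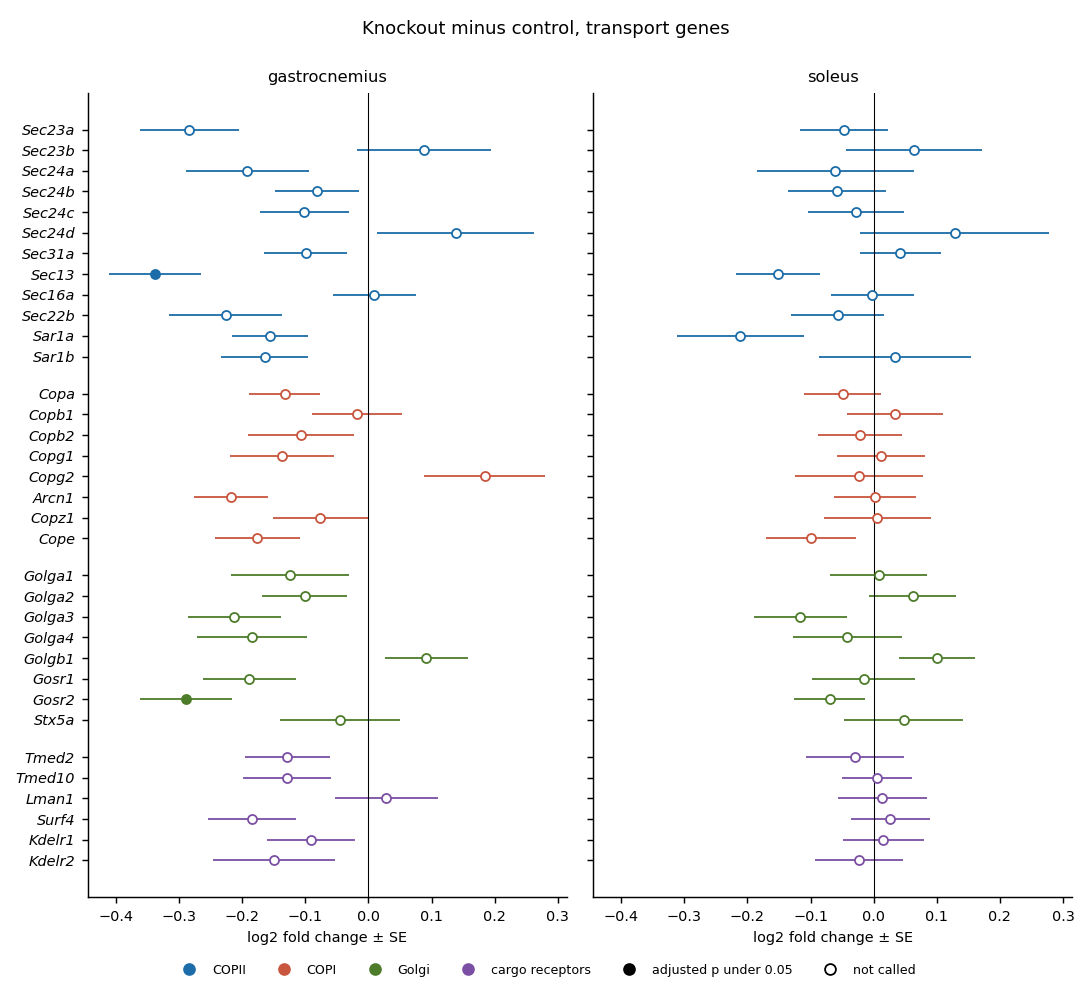
Log2 fold change (knockout minus control, bars are SE) of the 34 genes in gastrocnemius and soleus, by class; filled points have an adjusted p under 0.05. In the gastrocnemius 28 of 34 points lie left of 0 and only Sec13 and Gosr2 are filled, and in the soleus 18 lie left of 0 and none is filled.

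Whether the knockout effect differed between the muscles was tested as an interaction in the fit of all 18 libraries. No transport gene was called, against 0.0703% of all genes (13 of 18494). At an unadjusted p under 0.05 there were 4 of the 34, against 999 of all 18494 genes. DESeq2 and limma voom also called 0. The difference, soleus effect minus gastrocnemius effect, was 0.18 ± 0.09 for Sec13 (edgeR adjusted p = 0.945), 0.21 ± 0.09 for Gosr2 (0.826) and 0.21 ± 0.08 for Arcn1 (0.787). The gene with the largest absolute difference was Sec23a, at 0.23 ± 0.11. The calls in the gastrocnemius are therefore not shown to be specific to that muscle.

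**Figure D3:**
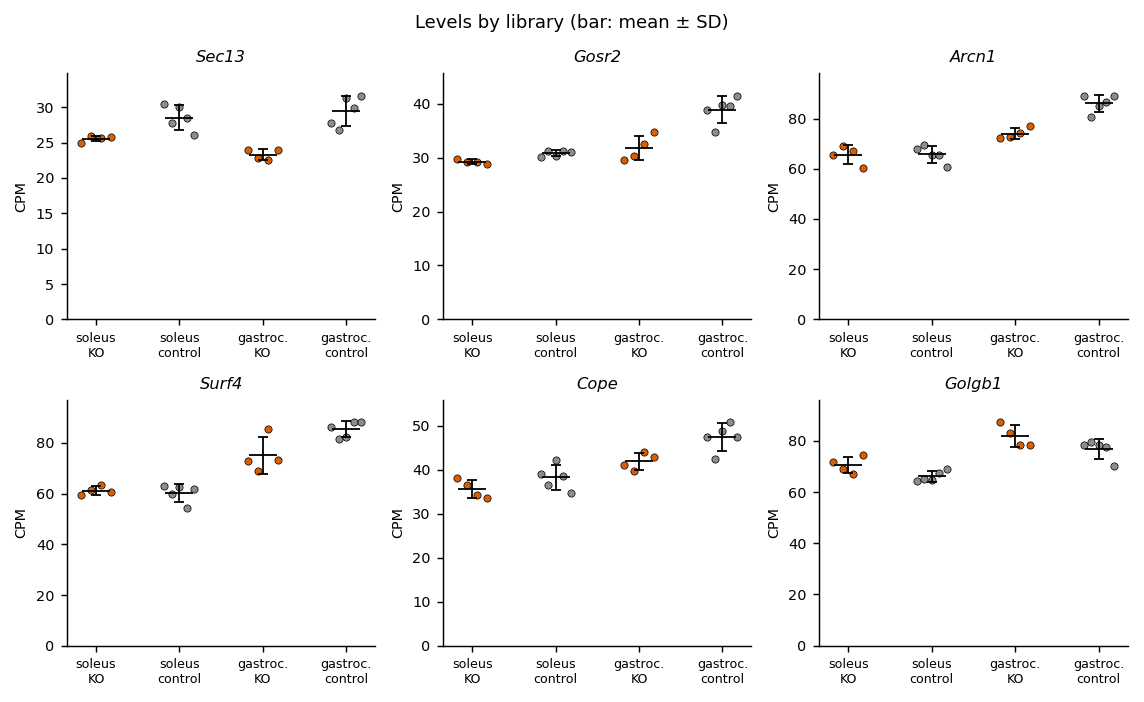
CPM in each library (points) with the group mean and SD (bars) for the genes called in knockout gastrocnemius and those with the smallest p of their class, in knockout and control soleus and knockout and control gastrocnemius. Sec13 lies at 22.5 to 23.98 CPM in knockout gastrocnemius and at 26.7 to 31.6 CPM in its controls.

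The regions around the start sites were read from RefSeq promoter windows, 250 bases before to 50 after each start on GRCm38.p6, which held 32 windows for 28 of the 34 genes. A window of each of the 2 genes called in the gastrocnemius is shown with that of Gosr1, the other GOSR protein of the list, and capitals mark the motifs searched. Both strands were searched for CCACG, for the CRE-like core TGACGT and for its longer form TGACGTGG. The search also covered the ER stress response element, which is CCAAT followed after 9 bases of any kind by CCACG, and matches of different motifs overlap at some sites.
Sec13, chr6:113740632-113740931, minus strand: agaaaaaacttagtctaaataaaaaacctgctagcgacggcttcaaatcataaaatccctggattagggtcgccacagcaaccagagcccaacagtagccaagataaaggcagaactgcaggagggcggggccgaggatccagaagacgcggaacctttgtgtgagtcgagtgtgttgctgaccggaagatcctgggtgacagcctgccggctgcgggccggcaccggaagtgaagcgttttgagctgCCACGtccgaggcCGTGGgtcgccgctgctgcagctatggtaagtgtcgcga
Gosr2, chr11:103697674-103697973, minus strand: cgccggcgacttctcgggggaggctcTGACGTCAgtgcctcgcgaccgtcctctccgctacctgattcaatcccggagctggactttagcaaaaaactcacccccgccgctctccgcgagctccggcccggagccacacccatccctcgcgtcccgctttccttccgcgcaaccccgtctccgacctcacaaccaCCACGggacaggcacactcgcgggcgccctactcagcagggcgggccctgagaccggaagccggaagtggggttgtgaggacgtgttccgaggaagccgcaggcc
Gosr1, chr11:76763529-76763828, minus strand: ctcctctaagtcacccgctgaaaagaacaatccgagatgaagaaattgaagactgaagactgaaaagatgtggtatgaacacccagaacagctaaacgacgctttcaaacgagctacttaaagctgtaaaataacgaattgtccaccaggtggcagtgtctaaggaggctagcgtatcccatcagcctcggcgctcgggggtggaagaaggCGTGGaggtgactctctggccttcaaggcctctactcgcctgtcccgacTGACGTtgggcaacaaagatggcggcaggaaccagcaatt
The Sec13 window holds CCACG on both strands beside the start, with no TGACGT. The Gosr2 window shown holds TGACGT as a palindrome far upstream and CCACG nearer the start, whereas its second window (chr11:103697005-103697304), not shown, holds none of the motifs; Gosr1 holds 1 copy of each. Across the set, CCACG was present in 22 of 32 windows, against 32.77% of the 32851 windows of all genes, and TGACGT in 15 of 32, against 7.51%. TGACGTGG was found in 5 windows (Copb1, Copb2, Sec23a, Sec24d and Stx5a), against 0.68%, and the ER stress response element in 0, against 0.12%. These counts describe letters in the windows and are not evidence that a factor binds there.

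More of the genes differed between the muscles than between the genotypes. In controls, 15 of the 34 genes were lower and 5 higher in soleus than in gastrocnemius, where 21.9% of all genes were called lower and 27.4% higher. In knockout mice 12 were lower and 4 higher, against 18.5% and 19.2% of all genes. The knockout and control comparisons share no library, but both came from 1 fit of all 18 libraries with a shared estimate of the spread. Fitted on only the groups compared, 22 genes were called in controls and 12 in knockouts. In the 18-library fit, all 16 genes called in knockouts were among the 20 called in controls, each in the same direction. The share of all genes called in both was not counted. Copz1, Golga2, Gosr2 and Sar1a were called in controls alone, which is not a test that the muscles differ less in knockouts. The median log2 fold change in controls was -0.11 for the 34 genes and 0.08 for all genes. TMM factors, which scale library totals, were 0.869 to 0.968 in gastrocnemius and 1.05 to 1.15 in soleus libraries. Scaling therefore lowered soleus CPM relative to gastrocnemius, and small muscle differences rest on it. Unscaled, the 34 and the partner genes described below (142 genes) took 0.572 to 0.602% of counts in soleus controls. In gastrocnemius controls they took 0.554 to 0.579%.

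The GTPase Sar1b showed the largest difference of the set. It measured 63.9, 64.3, 53.7, 50.9 and 54.1 CPM in control soleus libraries 34, 36, 37, 38 and 41, and 235, 204, 207, 237 and 248 CPM in control gastrocnemius libraries 1, 3, 4, 5 and 8. The groups were far apart, with a log2 fold change of -1.98 ± 0.10 (edgeR adjusted p = 7.28e-13). In knockout mice it measured 60.3, 66.9, 64.3 and 42.6 CPM in soleus and 203, 195, 210 and 199 CPM in gastrocnemius, a log2 fold change of -1.79 ± 0.11. Its paralog Sar1a differed the other way and by little, at 0.22 ± 0.08 in controls (edgeR adjusted p = 0.0260). That call was lost with RLE scaling, with DESeq2 and when control gastrocnemius library 1, 3 or 4 or control soleus library 36, or gastrocnemius libraries 2, 3 and 6 together, were left out.

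The inner-coat genes Sec24a and Sec23a came next. Sec24a, a cargo-binding subunit, measured 50.3, 47.3, 36.6, 42.0 and 49.5 CPM in control soleus and 83.5, 88.5, 80.7, 83.8 and 84.7 CPM in control gastrocnemius, a log2 fold change of -0.90 ± 0.11 (edgeR adjusted p = 1.81e-06). Sec23a measured 48.6, 49.1, 49.3, 48.7 and 50.5 CPM in control soleus and 82.2, 74.4, 84.1, 85.9 and 94.6 CPM in control gastrocnemius, a log2 fold change of -0.77 ± 0.07 (edgeR adjusted p = 9.17e-09). Neither gene's groups overlapped. Sec24b was also lower (-0.22 ± 0.07), while Sec24c, Sec24d, Sec23b, Sec13, Sec31a, Sec16a and Sec22b did not pass, with values between -0.18 and 0.17. In knockout mice Sec24a was at -0.78 ± 0.13, Sec23a at -0.54 ± 0.08 and Sec24b at -0.21 ± 0.08. The Sec24b call there was lost without gastrocnemius library 2 or 6, soleus library 39 or 42, or gastrocnemius libraries 2, 3 and 6 together. It was also lost with upper-quartile scaling, no low-count filter, a minimum count of 50 or only the groups compared.

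Among the cargo receptors 5 of 6 were lower in control soleus: Kdelr1 (-0.52 ± 0.06), Surf4 (-0.50 ± 0.06), Kdelr2 (-0.50 ± 0.08), Tmed10 (-0.44 ± 0.06) and Lman1 (-0.19 ± 0.07). The class median was -0.47, and the same 5 were called in knockout mice, where the median was -0.30. Of these the Lman1 call was lost in controls without gastrocnemius library 1, 4, 5 or 8 or soleus library 34 or 41. In knockouts it was lost without gastrocnemius library 6, 7 or 9 or soleus library 35, 39 or 42. Both Lman1 calls were also lost with upper-quartile scaling, no low-count filter or a minimum count of 50. The knockout call was lost too with limma voom and with only the groups compared. Tmed2, a p24 partner of Tmed10, did not pass (-0.09 ± 0.07). Of the COPI subunits Arcn1 (-0.39 ± 0.06), Cope (-0.31 ± 0.06) and Copz1 (-0.22 ± 0.07) were lower and Copb1 (0.24 ± 0.07) was higher, so that subunits of 1 coat differed in opposite directions. The Copz1 call was lost without control gastrocnemius library 1 or control soleus library 38, and with no low-count filter. In knockouts Arcn1 (-0.17 ± 0.06) lost its call without gastrocnemius library 7 or 9 or soleus library 35 or 42. It also lost it with no low-count filter and with only the groups compared. The Copb1 call in controls was lost without gastrocnemius libraries 2, 3 and 6 together. Copa, Copb2, Copg1 and Copg2 lay between -0.09 and 0.10 and did not pass.

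The Golgi genes split evenly, and this class held 3 of the 5 genes that were higher in soleus. Golga1, a trans-Golgi golgin, measured 16.9, 17.6, 18.05, 17.995 and 18.8 CPM in control soleus and 13.7, 16.4, 13.1, 13.3 and 15.2 CPM in control gastrocnemius (log2 fold change 0.32 ± 0.08, edgeR adjusted p = 0.00207). Stx5a, the syntaxin of ER-to-Golgi fusion, measured 19.6, 18.8, 18.3, 17.0 and 15.5 CPM in control soleus and 13.4, 16.1, 14.1, 14.3 and 14.1 CPM in control gastrocnemius (0.31 ± 0.09, edgeR adjusted p = 0.00634). The groups did not overlap for Golga1 and did for Stx5a, where soleus library 41 fell below gastrocnemius library 3. Golga3 measured 105, 95.2, 103, 105 and 94.1 CPM in control soleus and 89.5, 83.1, 86.9, 71.1 and 82.4 CPM in control gastrocnemius, without overlap (0.28 ± 0.07, edgeR adjusted p = 0.00172). Gosr2 (-0.34 ± 0.06), Golga2 (-0.23 ± 0.06) and Golgb1 (-0.22 ± 0.05) were lower in soleus, and Golga4 (0.00 ± 0.08) and Gosr1 (-0.01 ± 0.07) did not pass.

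**Figure D4:**
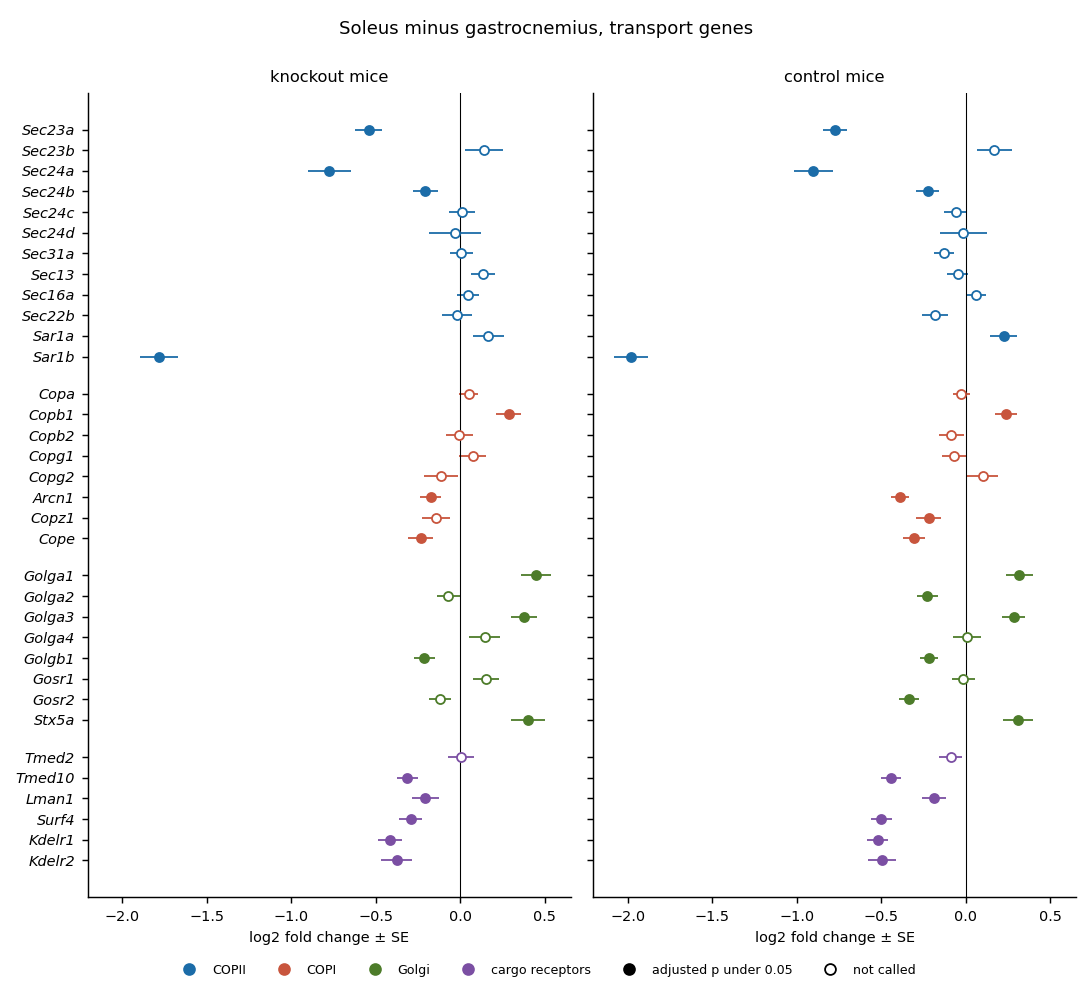
Log2 fold change (soleus minus gastrocnemius, bars are SE) of the 34 genes in knockout mice and in control mice, by class; filled points have an adjusted p under 0.05. Sar1b lies far left in both panels, at -1.79 in knockouts and -1.98 in controls, and 5 of 6 cargo receptors are left of 0 and filled in both.

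Cell-type markers also differed between the muscles, in both directions. The 6 fibroblast markers were all lower in value in control soleus, 4 of them called, with sums of 1332 to 2143 CPM in soleus controls and 2491 to 4379 CPM in gastrocnemius controls. Slow-fibre genes summed to 12273 to 16351 CPM in soleus controls and 531 to 849 CPM in gastrocnemius controls. Of the 5 endothelial markers 4 were higher in control soleus, with sums of 299 to 319 CPM in soleus controls and 230.3 to 252.4 CPM in gastrocnemius controls. Of the 6 macrophage markers 2 were lower, with sums of 47.8 to 78.5 CPM in soleus controls and 72.1 to 99.9 CPM in gastrocnemius controls. Of the 4 Schwann cell markers 2 were lower, with sums of 37.3 to 182 CPM in soleus controls and 164 to 290 CPM in gastrocnemius controls. The part of these lists in the transport gene values was not tested.

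Sec24a and Sar1b lie head to head on chromosome 11, with annotated starts at 51763634 and 51763687, 53 bases apart on opposite strands. The RefSeq window of Sar1b covers both of these starts, while the RefSeq window of Sec24a lies at another start, downstream of the annotated one (chr11:51756785-51757084) and holds TGACGT on the minus strand of the window at 2 sites. The Sar1b window is shown with those of Sar1a, its paralog, and Sec23a, windows chosen after their values were seen.
Sar1b, chr11:51763413-51763712, plus strand: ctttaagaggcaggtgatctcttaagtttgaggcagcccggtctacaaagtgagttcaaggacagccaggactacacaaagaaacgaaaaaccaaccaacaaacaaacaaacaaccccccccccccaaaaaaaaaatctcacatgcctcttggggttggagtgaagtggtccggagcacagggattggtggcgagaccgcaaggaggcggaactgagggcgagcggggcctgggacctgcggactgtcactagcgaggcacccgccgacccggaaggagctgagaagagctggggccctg
Sar1a, chr10:61680035-61680334, plus strand: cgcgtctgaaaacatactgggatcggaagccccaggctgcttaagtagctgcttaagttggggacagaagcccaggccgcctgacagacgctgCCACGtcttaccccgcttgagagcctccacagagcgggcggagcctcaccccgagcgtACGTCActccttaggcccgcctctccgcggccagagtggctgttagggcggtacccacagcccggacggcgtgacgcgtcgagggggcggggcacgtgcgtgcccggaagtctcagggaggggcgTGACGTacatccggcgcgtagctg
Sec23a, chr12:59011968-59012267, minus strand: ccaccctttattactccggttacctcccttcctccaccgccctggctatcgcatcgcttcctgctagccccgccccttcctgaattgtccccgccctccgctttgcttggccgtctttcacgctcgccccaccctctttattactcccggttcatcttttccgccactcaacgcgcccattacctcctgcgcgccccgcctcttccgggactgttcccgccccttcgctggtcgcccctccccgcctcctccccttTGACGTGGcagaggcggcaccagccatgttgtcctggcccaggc
The Sar1b window holds none of the motifs searched. Sar1a holds CCACG once and TGACGT on each strand, and Sec23a holds TGACGTGG just past its start. Of this head-to-head pair, Sec24a was at -0.90 and Sar1b at -1.98 in control soleus relative to control gastrocnemius, and in knockout gastrocnemius relative to its controls they were at -0.19 and -0.16, neither past the threshold there.

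Where paralogs fill a coat position, and for the receptor pair Kdelr1 and Kdelr2, the ratio of their length-scaled counts was compared over libraries. There were 5 ratios in 3 comparisons (exact two-sided permutation tests, adjusted over the 15 tests). The smallest p possible in these permutation tests was 0.0159 for 4 against 5 libraries and 0.00794 for 5 against 5. Sar1a made up 44.2 ± 2.23% of the summed Sar1a and Sar1b in control soleus and 14.7 ± 0.661% in control gastrocnemius (SD, n = 5 each). The log2 ratio differed by 2.20 (exact permutation test, adjusted p = 0.0397). Sec23a made up 87.4 ± 1.72% of the Sec23 pair in control soleus and 93.0 ± 0.838% in control gastrocnemius, a log2 difference of -0.94 (exact permutation test, adjusted p = 0.0397). Sec24a and Sec24b together made up 36.6 ± 1.88% of the 4 Sec24 genes in control soleus and 44.6 ± 1.35% in control gastrocnemius, a log2 difference of -0.48 (exact permutation test, adjusted p = 0.0397). In each of these 3 the libraries of the muscles did not overlap.

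Between genotypes 2 ratios passed, both in the gastrocnemius. There Sec23a made up 91.1 ± 0.839% of its pair in knockout libraries and 93.0 ± 0.838% in controls, a log2 difference of -0.38 (exact permutation test, adjusted p = 0.0476, n = 4 and 5). Copg1 made up 52.5 ± 1.35% of its pair in knockout libraries and 58.0 ± 1.49% in controls, a log2 difference of -0.32 (exact permutation test, adjusted p = 0.0476), subject to the reads that Copg2 may share with Mest. The groups did not overlap in either, so each exact p was the smallest possible for 4 against 5 libraries. Their adjusted p depends on the joint adjustment with the muscle ratios, 3 of which had a smaller p. In the soleus no ratio passed; Sar1a made up 40.2 ± 2.87% of its pair in knockout libraries and 44.2 ± 2.23% in controls (exact permutation test, adjusted p = 0.204), a difference that limma called (adjusted p = 0.0128). The ratio of Kdelr1 to Kdelr2 passed in no comparison, with Kdelr1 averaging 68.3 to 69.7% of the pair in the 4 groups. With any 1 gastrocnemius control left out none of the 15 passed, and with any 1 gastrocnemius knockout left out 3 did, as fewer splits raise the smallest p.

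**Figure D5:**
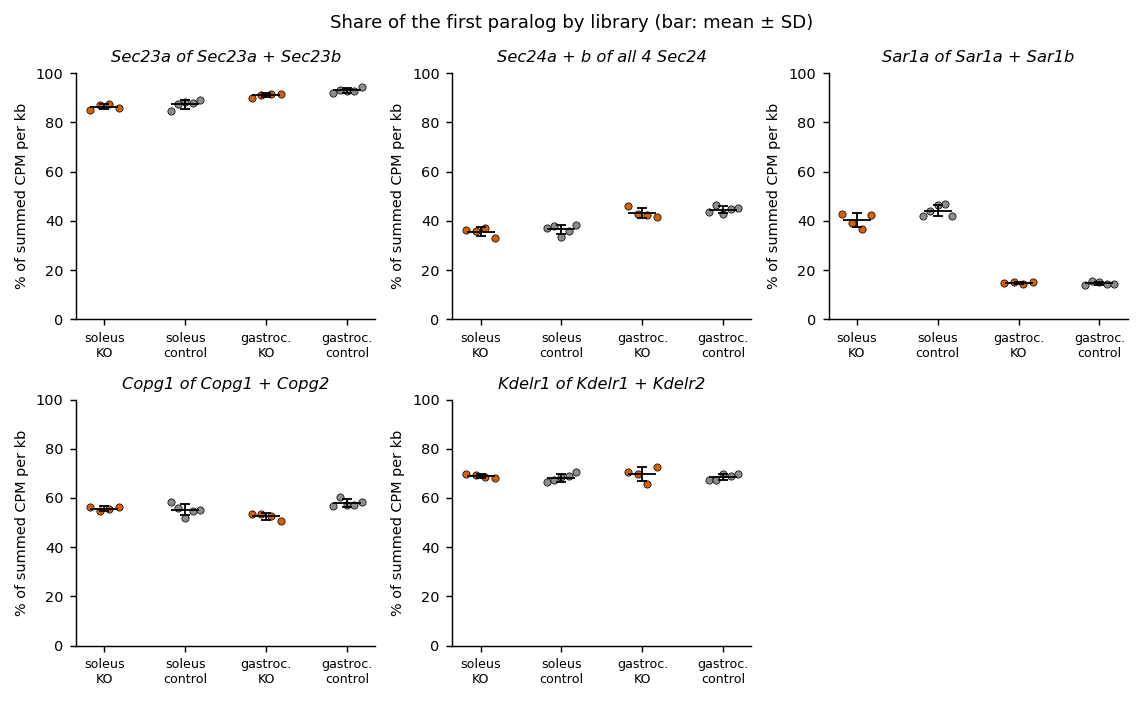
Share of the first-named paralog or pair in the summed CPM per kilobase of its family, in each library (points) with the group mean and SD (bars), for knockout and control soleus and knockout and control gastrocnemius. The Sar1a share averages 40.2 and 44.2% in knockout and control soleus and 14.7% in both gastrocnemius groups, while the Kdelr1 share averages 68.3 to 69.7%.

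Other genes of the pathway were taken as lists around the 34. In knockout gastrocnemius, 1 of 32 COPII partners (Ergic1), 0 of 28 COPI partners and 2 of 33 Golgi partners (Rab2a and Golm1) were lower. So was 1 of 14 tested genes of a Site-1 Protease list (Srebf1). None of these genes was higher, and over all genes 2.01% were lower and 1.77% higher. The Site-1 Protease list holds genes of the SREBP, ATF6 and CREB3 families, with Mbtps1 itself, Mbtps2, Scap, Insig1, Insig2 and Xbp1. The medians of the 4 lists were -0.10, -0.02, -0.02 and 0.06. In knockout soleus 0 of these genes were called by edgeR, DESeq2 or limma voom. At an unadjusted p under 0.05 there were 1, 1, 2 and 1, against 1481 of all 18087 genes. The numbers called in the gastrocnemius ran from 0 to 7 over the alternatives, with 0 when control library 5 or knockout library 6 or 7 was left out and 1 without control library 1 or 4. In those leave-out fits 206 to 287 of all genes were called, against 619 in the main fit.

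Rab2a, a GTPase of traffic between the ER and the Golgi, measured 145, 140, 133 and 132 CPM in knockout gastrocnemius and 174, 162, 175, 186 and 150 CPM in its controls (log2 fold change -0.30 ± 0.07, edgeR adjusted p = 0.0321). Golm1, a Golgi membrane protein, measured 16.8, 14.7, 12.4 and 17.1 CPM in the knockout libraries and 21.7, 20.3, 20.1, 19.98 and 19.6 CPM in the controls (-0.41 ± 0.10, edgeR adjusted p = 0.0315). Ergic1, a protein of the ER-Golgi intermediate compartment, measured 31.3, 33.0, 31.8 and 35.2 CPM in the knockout libraries and 44.5, 36.7, 39.7, 45.7 and 38.6 CPM in the controls (-0.32 ± 0.08, edgeR adjusted p = 0.0353). In all 3 every knockout library lay below every control. Srebf1, a Site-1 Protease substrate that drives lipid synthesis, was at -0.59 ± 0.12 (edgeR adjusted p = 0.0182), with 29.2, 32.0, 28.3 and 38.9 CPM in the knockout libraries and 41.1, 41.5, 56.7, 51.8 and 51.6 CPM in the controls; its exons share 109 bases with Rai1 on the other strand.

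Between the control muscles, where 21.9% of all genes were lower and 27.4% higher in soleus, 12 of 32 COPII partners were lower and 5 higher. Of 28 COPI partners 6 were lower and 5 higher, of 33 Golgi partners 15 and 5, and of 14 tested genes of the Site-1 Protease list 9 and 1. Golm1 was the lowest at -1.82 ± 0.09, followed by Creb3l1 (-1.04 ± 0.16), a Site-1 Protease substrate, and Rab2a (-1.02 ± 0.07). At the other end stood Trip11, a cis-Golgi golgin, at 0.66 ± 0.07, Use1, a SNARE of return transport to the ER, at 0.61 ± 0.14, and Pdcd6, a calcium-binding partner of Sec31a, at 0.59 ± 0.09. Golm1 measured 6.08, 5.37, 5.09, 6.13 and 6.11 CPM in control soleus, far below the 19.6 to 21.7 CPM of control gastrocnemius. In knockout mice these 6 kept their sign, at -1.44 ± 0.10 for Golm1, -1.36 ± 0.18 for Creb3l1, -0.77 ± 0.07 for Rab2a, 0.68 ± 0.08 for Trip11, 0.64 ± 0.15 for Use1 and 0.48 ± 0.10 for Pdcd6.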

How the data were processed

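The authors deposited, for each of 18 libraries, a table of whole read counts by Ensembl gene with CPM and RPKM beside them. The submitters' processing notes name STAR 2.5.1a, featureCounts 1.4.6-p5, Subread, bcl2fastq and the build GRCm38, but state no annotation release, strand setting or rule for multi-mapped reads. The deposited CPM and RPKM equal the deposited counts rescaled to library totals and gene lengths, to within 4.9e-10, so only the counts were used. All 41388 features were Ensembl genes; 97.3% took a symbol from GENCODE mouse annotation. Chi-square per gene between libraries within a group was 19.59 to 140.26, above sampling noise, and no libraries were merged.

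Counts were fitted with edgeR 4.0.16 (R 4.3.3; TMM scaling, genes kept by filterByExpr at counts of 10 and totals of 15, robust quasi-likelihood F-test, Benjamini-Hochberg adjustment over all genes, threshold 0.05). Each knockout comparison used the 9 libraries of its muscle, and the muscle comparisons and the interaction used all 18 libraries. Levels are CPM on TMM-scaled totals, per kilobase where genes are compared. Ranks and paralog shares on this scale depend on annotated exon lengths, such as 10905 bases for Copg1 and 4477 for Copg2. These may differ from the lengths of the transcripts expressed. The SE of a log2 fold change is its size divided by the square root of F. Paralog ratios were compared by exact permutation (scipy 1.17.1) and limma 3.58.1; DESeq2 1.42.0 and limma voom were alternatives. On simulated counts with the gastrocnemius design, edgeR recovered 41% of genes changed by 0.5 on the log2 scale. It recovered 85% of those changed by 1. The simulation covered 16095 genes, and recovery was not measured for the transport genes alone. Their SE in the gastrocnemius ran from 0.06 to 0.12, with a median of 0.07, so these rates may not apply to them.

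The genes and lists were chosen with earlier results of these data known. Values per library are given for genes called in a knockout comparison, for the gene of each class with the smallest p in each knockout comparison, and for the 3 highest and 3 lowest genes called between control muscles; likewise for partner genes called in a knockout, and fold changes for the 3 highest and 3 lowest between muscles. Other genes with values, such as Sec23a, Sar1a and Copg2 in the knockouts, were chosen after their values were seen. Sec24d, Copa, Copg2 and Golga2 each share exon bases with another gene whose mean count reached 10% of their own, and close paralogs may share reads.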

Additional observations from a re-analysis of the deposited data

Results flagged for a closer look

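Within groups of 4 or 5 libraries, 156 sets of values (34 genes and 5 paralog ratios in 4 groups) were searched for a library far from the rest, and 4 were found. The cutoff flags about 1 set in 20 by chance, and 4 of 156 is below that rate. In knockout gastrocnemius, library 2 held 14.66 CPM of Golga1, the other 3 lying at 12.55 to 12.78 CPM, and library 7 held 59.85 CPM of Kdelr1, the other 3 lying at 56.38 to 56.71 CPM. In control gastrocnemius, library 8 held 70.22 CPM of Golgb1, below 77.58 to 79.74 CPM in the other 4, and 53.04 CPM of Lman1, above 50.46 to 51.21 CPM in the other 4. None of these 4 genes was called between knockout and control gastrocnemius.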

How the results depend on the processing

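The number of transport genes called in knockout gastrocnemius, 2 as reported, was 1 with upper-quartile scaling, 4 with DESeq2, 4 with all 18 libraries in 1 fit, and 0 to 4 with single libraries left out; the cause was not tested. Their median log2 fold change kept its sign in all 18 alternatives, between -0.15 and -0.11. Sec13 passed in 13 of 18 alternatives, Gosr2 in 9 and Arcn1 in 6. In the soleus and for the interaction the count was 0 in all alternatives. Between the muscles it ran from 17 to 22 in controls and from 12 to 16 in knockouts. The 5 passing paralog ratios became 0 to 6 with single libraries left out, where fewer splits raise the smallest p, and 6 with limma. No called gene that is named changed direction. At this depth and spread, with SE of 0.06 to 0.12 in the gastrocnemius, knockout differences under about 0.3 on the log2 scale were mostly not callable. No paired analysis was possible because the sample titles share no number between groups; the order of genotypes along the numbers is the same in both muscles, but no label ties libraries to mice.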
